A study of Mus musculus with 8 samples.

Results

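Open chromatin was examined at 10 genes that mark Müller glia: Rlbp1, Glul, Slc1a3, Sox9, Aqp4, Gfap, Vim, Lhx2, Apoe and Dkk3. The genes were picked by name as known markers of this cell type, with earlier results of these data known. Every peak that overlapped one of them or the 10 kb on either side was taken from 8 lists of ATAC-seq peaks. ATAC-seq marks open DNA by the insertion of sequencing adapters with a transposase. Peaks from different lists were merged into 1 region where they overlapped by 1 bp or more, and the windows held 70 of the 189914 merged regions of the genome. Because peak presence chose these regions, presence and peak numbers are given as descriptions, with no test. A total of 38 of the 70 regions (54.3%) had a peak in all 8 lists, against 69493 regions (36.6%) over the genome, and only those were tested.

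Müller glia are the radial glia of the retina. They span its whole thickness, clear glutamate and potassium, recycle visual pigment chromophore for cones, and react to injury by raising intermediate filaments such as GFAP. The cells sequenced here were sorted retinal ganglion cells (RGCs), which are neurons, and whether a peak at a glial gene came from RGCs or from other cells in the sort was not tested. Open DNA at a gene also does not say that the gene is transcribed. In bulk material of this kind, fewer cells of a type and less accessible DNA per cell cannot be told apart.

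The cells came from retinas of adult C57BL/6J mice of both sexes. AAV2 encoding GFP, Ezh2 or Ezh2-Y726D, a form of this histone H3 lysine methyltransferase without catalytic activity, was given into the vitreous. The optic nerve was crushed 2 weeks later, and RGCs were sorted by the surface protein CD90.2 (Thy1) a further 3 days on, at 50000 cells per library, with 3 GFP, 3 Ezh2 and 2 Ezh2-Y726D samples. All groups, the GFP controls included, therefore carried virus and a crushed nerve. AAV2 given into the vitreous can also enter other retinal cells. The labels do not say whether replicates were separate animals, so p-values measure the spread between these samples.

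The lists held 112939 to 135895 peaks. They give no read numbers, so depth is unknown. A relative index of it, the background pileup recovered from the steps of low fold values, was 2.69 to 3.74 reads in the GFP, 3.09 to 3.59 in the Ezh2, and 2.39 and 3.12 in the Ezh2-Y726D samples. A peak within 1 kb of a gene end was found in every list at 14 or 15 of 15 RGC genes. Such peaks did not set RGCs apart, since 9 of the 10 Müller glia genes, 8 to 10 of 10 bipolar and 8 or 9 of 10 amacrine genes had one too. Of 15 genes of microglia and macrophages, 8 to 12 had such a peak in the GFP and 11 or 12 in the Ezh2 samples, but 3 in either Ezh2-Y726D sample, with Aif1 and Fcrls at 0 in every list. Of 14 matched T cell genes, 12 to 14, 14 and 6 or 7 did. Because T cells also carry CD90.2, the gate used here would not remove them. Microglia do not usually carry it, and how far the gate depleted them is not known from the lists. Which cells gave the peaks at the microglia and T cell genes was not tested.

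Promoter sequences are shown for the genes with a tested difference at their start (Glul and Slc1a3) and, for contrast, for Rlbp1, whose start leaned the other way, and for Gfap and Vim, the intermediate filament genes of which Gfap had no peak at its start and Vim a wide one. Each sequence is the 250 bases before the RefSeq start (GRCm38.p6), 5′ to 3′ on the strand of the gene, and capitals mark CG dinucleotides, the substrate of DNA methylation in mammals. They lie at chr1:153899679-153899928 on the plus strand (Glul), chr15:8710808-8711057 on the minus strand (Slc1a3), chr7:79387028-79387277 on the minus strand (Rlbp1), chr11:102897201-102897450 on the minus strand (Gfap) and chr2:13574061-13574310 on the plus strand (Vim).
Glul: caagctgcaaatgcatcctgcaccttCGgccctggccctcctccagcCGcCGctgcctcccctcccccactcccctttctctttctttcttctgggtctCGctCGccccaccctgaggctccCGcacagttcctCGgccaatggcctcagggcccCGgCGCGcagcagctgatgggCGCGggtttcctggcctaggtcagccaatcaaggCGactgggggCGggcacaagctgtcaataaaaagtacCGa
Slc1a3: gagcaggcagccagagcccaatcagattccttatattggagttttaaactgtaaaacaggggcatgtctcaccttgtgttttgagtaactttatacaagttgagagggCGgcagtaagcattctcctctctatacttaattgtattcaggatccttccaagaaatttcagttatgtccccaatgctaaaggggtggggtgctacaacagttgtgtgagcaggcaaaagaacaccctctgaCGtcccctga
Rlbp1: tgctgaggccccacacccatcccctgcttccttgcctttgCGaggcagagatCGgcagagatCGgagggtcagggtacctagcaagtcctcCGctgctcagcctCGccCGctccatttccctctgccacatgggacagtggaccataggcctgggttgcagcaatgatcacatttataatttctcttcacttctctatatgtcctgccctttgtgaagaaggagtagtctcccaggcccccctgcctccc
Gfap: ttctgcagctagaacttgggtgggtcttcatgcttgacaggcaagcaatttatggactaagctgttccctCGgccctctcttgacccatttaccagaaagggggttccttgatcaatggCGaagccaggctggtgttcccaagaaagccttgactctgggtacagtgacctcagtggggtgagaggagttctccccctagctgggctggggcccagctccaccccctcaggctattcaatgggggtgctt
Vim: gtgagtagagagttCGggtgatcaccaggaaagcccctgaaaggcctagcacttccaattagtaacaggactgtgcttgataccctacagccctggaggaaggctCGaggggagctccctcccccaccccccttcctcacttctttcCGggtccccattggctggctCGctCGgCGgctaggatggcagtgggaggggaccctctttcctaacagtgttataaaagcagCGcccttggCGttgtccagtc

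The promoters differed widely in CG content. Glul had 15 CG dinucleotides and Vim 8, whereas Rlbp1 had 6 and Slc1a3 and Gfap 2 each, against a median of 6 over 32851 mouse promoters of this length. Lhx2, with 25 and 24 at its starts, and Apoe, with 8, 9 and 10 at its 3 starts, completed the 7 genes with a promoter sequence. A peak covered at least part of these bases in all 8 lists at Glul, Slc1a3, Rlbp1, Vim and both Lhx2 starts, in 7 or 8 lists at Apoe, and in 0 lists at Gfap. A set of 5 motifs was searched on both strands. The SOX motif ACAAAG occurred once at Rlbp1, 42 bases before the start and on the opposite strand, as ctttgt in the line above, and once at Apoe, 54 bases before its most upstream start. It was in 16.5% of all promoters. The LHX2 motif TAATTA (4.84% of promoters), the NFI motif, TTGGC and GCCAA 5 bases apart (0.0365%), the STAT motif TTCCNGGAA (0.913%) and the AP-1 motif TGANTCA (6.75%) were not found in the 10 member promoters.

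Peak height was compared by the percentile of its fold, the ratio of summit pileup to local background, within its own list, so that the highest values belong to the tallest peaks of a list. For the test, the fold of the strongest peak per region was ranked again within each list, among the 69493 regions alone. These ranks were turned into normal scores and compared with limma, so differences do not follow exactly from the printed percentiles. Differences below are in normal scores with their SE, and adjusted p-values are those of limma with the Benjamini-Hochberg method over all regions.

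The first group of genes serves glutamate and retinoid handling. Glul encodes glutamine synthetase, which turns glutamate into glutamine. Its start region (chromosome 1, 153899278 to 153901452) stood at the 71.8, 70.3 and 57.8 percentiles in the GFP samples, 73.1, 73.6 and 70.4 in the Ezh2 samples, and 49.5 and 45.2 in the Ezh2-Y726D samples. Both Ezh2-Y726D samples lay below all others. The region, which also overlaps the non-coding genes Gm38440 and Mir8114, was higher in Ezh2 than in Ezh2-Y726D by 0.81 ± 0.22 (adjusted p = 0.0367), while Ezh2-Y726D minus GFP was -0.63 ± 0.22 (adjusted p = 0.109) and Ezh2 minus GFP 0.18 ± 0.20 (adjusted p = 0.689). The call was lost in 7 of 16 alternatives (adjusted p 0.0184 to 0.178), among them without any 1 Ezh2 (0.0546 to 0.0894) or Ezh2-Y726D library (0.120 and 0.178), and ranking by −log10 p took the difference to 0.34. The other Glul regions tested lay downstream of the gene. The one at 153918521 to 153919216 had the same order of group means, with 33.7 ± 14.8 (SD, n = 3) in GFP, 49.3 ± 5.66 (n = 3) in Ezh2 and 24.1 ± 2.72 (n = 2) in Ezh2-Y726D, and did not pass the test (Ezh2 against Ezh2-Y726D, adjusted p = 0.0583).

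Slc1a3 encodes GLAST, the main glutamate transporter of Müller glia. Its start region (chromosome 15, 8709493 to 8710975) was at the 42.6, 53.9 and 42.5 percentiles in GFP, 59.7, 63.2 and 66.6 in Ezh2, with 26.2 and 23.6 in Ezh2-Y726D. The 3 groups did not overlap, with GFP in the middle, but how many of all regions had this order was not counted. Ezh2 exceeded Ezh2-Y726D by 1.09 ± 0.20 (adjusted p = 0.0070), and neither group passed the test against GFP (0.49 ± 0.18, adjusted p = 0.157 for Ezh2, and -0.60 ± 0.20, adjusted p = 0.0924 for Ezh2-Y726D). The call was lost in 1 of 16 alternatives, without Ezh2-Y726D replicate 2 (adjusted p = 0.0539, range 0.0035 to 0.0539). Slc1a3 was the longest of the genes (8634124 to 8710807) and held 18 merged regions, of which 6 had a peak in 1 list only. A region inside the gene (8681822 to 8682478, 28657 bp from the start) had a peak at the 26.5, 35.3 and 54.0 percentiles in GFP and 61.4 and 62.8 in Ezh2-Y726D, and no peak in any Ezh2 sample. A second one (8672507 to 8672975) was also without a peak in the Ezh2 samples, and had one in 2 of 3 GFP and both Ezh2-Y726D samples. Another internal region (8665921 to 8666607) went the other way against GFP, with a peak in all Ezh2 samples (28.8, 39.5 and 59.2). It had one in 2 of 3 GFP samples (7.21 and 21.0) and in both Ezh2-Y726D samples (35.0 and 18.4). Internal regions thus had no single direction. Over the genome, 1.68% of all regions had a peak in every GFP sample and in no Ezh2 sample.

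Rlbp1 encodes CRALBP, the retinaldehyde binding protein of the visual cycle. The region over its start (chromosome 7, 79386545 to 79387458) stood at the 41.4, 68.3 and 63.4 percentiles in GFP, 36.4, 45.8 and 32.7 in Ezh2, with 59.0 and 59.8 in Ezh2-Y726D. The Ezh2 samples were below both Ezh2-Y726D samples but overlapped GFP, and no comparison passed the test (Ezh2 minus GFP -0.60 ± 0.23, adjusted p = 0.169, and Ezh2 minus Ezh2-Y726D -0.60 ± 0.25, adjusted p = 0.150). A flanking region 2666 bp beyond the other end of the gene (79370997 to 79372199) had the opposite order, at 83.6, 79.6 and 78.4 in GFP, 89.6, 88.1 and 91.4 in Ezh2, with 76.8 and 79.4 in Ezh2-Y726D. There Ezh2 exceeded Ezh2-Y726D by 0.61 ± 0.18 (adjusted p = 0.0482). This call was lost in 10 of 16 alternatives (adjusted p 0.0332 to 0.867), among them without any 1 library except GFP replicate 3 (0.0519 to 0.205), and ranking by −log10 p took the difference to 0.04. The region at the upstream gene end (79391682 to 79392747), which also overlaps the DNA repair gene Fanci, had means of 78.2 ± 4.81 (SD, n = 3), 87.0 ± 1.10 (n = 3) and 74.7 ± 0.982 (n = 2), with an adjusted p of 0.0743. A weak peak inside the gene (79390199 to 79390588) was present in all GFP and Ezh2 samples, at percentiles of 1.72 to 13.6, and in neither Ezh2-Y726D sample.

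**Figure D1:**
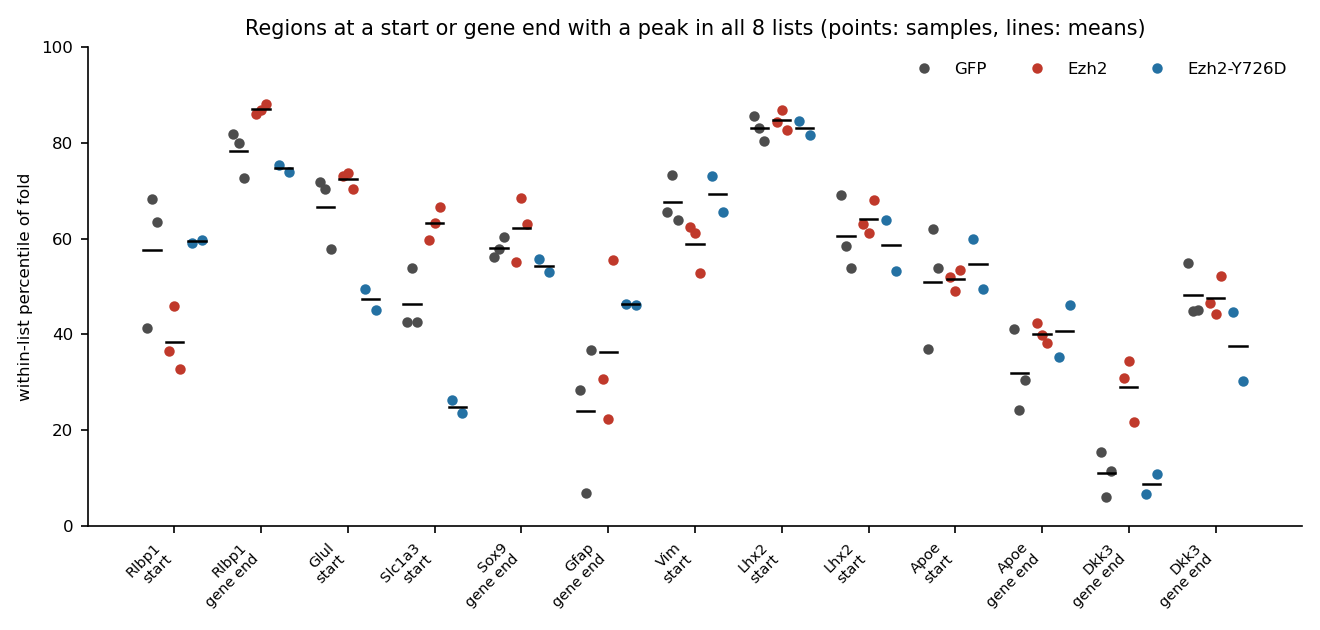
Within-list percentile of fold (vertical axis) at each region within 1 kb of a start or gene end that had a peak in all 8 lists. Points are samples, coloured by group, and lines are group means. At Slc1a3 the 2 Ezh2-Y726D samples (26.2 and 23.6) sit below GFP and Ezh2 above it. At the upstream Lhx2 start the groups coincide near 80.4 to 86.9, and the downstream Lhx2 start ranges from 53.3 to 69.1.

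Aqp4 encodes aquaporin 4, the water channel of glial endfeet. It was the only one of the 10 genes without a peak within 1 kb of either end in any list, and its 5 regions all lay inside the gene, 3 of them overlapping the non-coding gene A830021F12Rik. The region at 15406637 to 15407355 of chromosome 18 was at the 29.3, 30.8 and 36.9 percentiles in GFP, 46.0, 53.4 and 49.6 in Ezh2, with 12.1 and 23.0 in Ezh2-Y726D. The groups did not overlap and GFP was in the middle, an order whose share over all regions was not counted. Both this region and the Slc1a3 start were called between Ezh2 and Ezh2-Y726D, a choice that favours a gap between those groups. Ezh2 was higher than Ezh2-Y726D by 0.90 ± 0.18 (adjusted p = 0.0094), with 0.47 ± 0.16 (adjusted p = 0.127) for Ezh2 and -0.43 ± 0.18 (adjusted p = 0.165) for Ezh2-Y726D against GFP. The call was lost in 1 of 14 alternatives, without Ezh2-Y726D replicate 1 (adjusted p = 0.0865, range 0.0062 to 0.0865). The 2 other tested regions had means of 46.4 ± 3.11 and 41.8 ± 7.16 (SD, n = 3) in Ezh2 against 27.3 ± 5.28 and 22.8 ± 6.77 (n = 3) in GFP, and did not pass the test (adjusted p = 0.142 and 0.246). Ezh2-Y726D had means of 28.3 ± 10.5 and 31.9 ± 18.6 (n = 2) there, above the GFP means but overlapping GFP. GFP was thus not in the middle at these regions. At the untested region 15391510 to 15391914, Ezh2-Y726D stood at 37.0 and 37.8, with 17.8 in 1 GFP and 17.5 in 1 Ezh2 sample. At 15405069 to 15405510 it stood at 13.1 and 44.4, with 7.08, 23.9 and 14.0 in GFP and 6.15 in 1 Ezh2 sample.

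Gfap and Vim encode the intermediate filaments that rise in reactive glia. Gfap had no peak within 1 kb of its start in any list, and the nearest lay 1117 bp upstream (102898317 to 102898976 of chromosome 11), in 7 of 8 lists at percentiles of 11.0 to 42.8. The clearest difference at any member was inside the gene, 3928.5 bp from the start (102892901 to 102893642). This region stood at the 59.6, 43.6 and 40.8 percentiles in GFP, 84.1, 83.0 and 83.9 in Ezh2, with 13.1 and 34.2 in Ezh2-Y726D. On the scale of fold over local background the values were 5.32, 4.69 and 4.24 in GFP, 8.11, 7.75 and 7.48 in Ezh2, with 3.48 and 4.15 in Ezh2-Y726D. All Ezh2 samples lay above all others on either scale. The difference from GFP was 1.24 ± 0.22 (adjusted p = 0.0177) and that from Ezh2-Y726D was 1.93 ± 0.25 (adjusted p = 0.0017), whereas Ezh2-Y726D minus GFP was -0.70 ± 0.25 (adjusted p = 0.113). The result against GFP no longer passed the test without GFP replicate 2 (adjusted p = 0.0540) or GFP replicate 3 (adjusted p = 0.0539), within a range of 0.0109 to 0.0652 over its alternatives.

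A second Gfap region, 3475 bp upstream of the gene (102900675 to 102901436), lay over the predicted genes Gm34560 and Gm39395 and ranked high in every list. It stood at 83.8, 75.7 and 83.5 in GFP, 95.1, 91.2 and 96.1 in Ezh2, with 86.6 and 73.1 in Ezh2-Y726D. Ezh2 exceeded Ezh2-Y726D by 0.88 ± 0.24 (adjusted p = 0.0347) and, without passing the test, GFP by 0.79 ± 0.21 (adjusted p = 0.0635). The call was lost in 7 of 16 alternatives (adjusted p 0.0270 to 0.401). Ranking by −log10 p took the difference to 0.21 (0.401), and it was 0.56 without Ezh2-Y726D replicate 2 (0.250), with losses also without GFP replicate 3 (0.0515), Ezh2 replicate 1 (0.0863) or Ezh2 replicate 3 (0.0857). The remaining Gfap regions did not pass the test, including the one near the far end of the gene (102887900 to 102888927), where the Ezh2-Y726D samples were at 46.4 and 46.2 and GFP ranged from 6.76 to 36.8. The regions on the far flank overlap Eftud2 or Ccdc103, which lie next to Gfap, and cannot be assigned to 1 gene.

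Vim, which encodes vimentin, had 1 wide region over its start (chromosome 2, 13573268 to 13575745, 2478 bp). It stood at 65.5, 73.3 and 63.9 in GFP, 62.4, 61.2 and 52.8 in Ezh2, with 73.1 and 65.6 in Ezh2-Y726D. The Ezh2 samples were lowest, but no comparison passed the test (Ezh2 minus GFP -0.31 ± 0.20, adjusted p = 0.421, and Ezh2 minus Ezh2-Y726D -0.33 ± 0.22, adjusted p = 0.353). The authors' caller split this region into 2 peaks in all GFP samples and kept it as 1 peak in the others. The other Vim region, 715 bp past the far end of the gene, had a peak in 2 Ezh2 samples only, at 21.0 and 23.8. The differences at the Vim start had the opposite sign to those at the called Gfap regions, which does not hold for this other Vim region. The contrast between the genes was not tested.

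**Figure D2:**
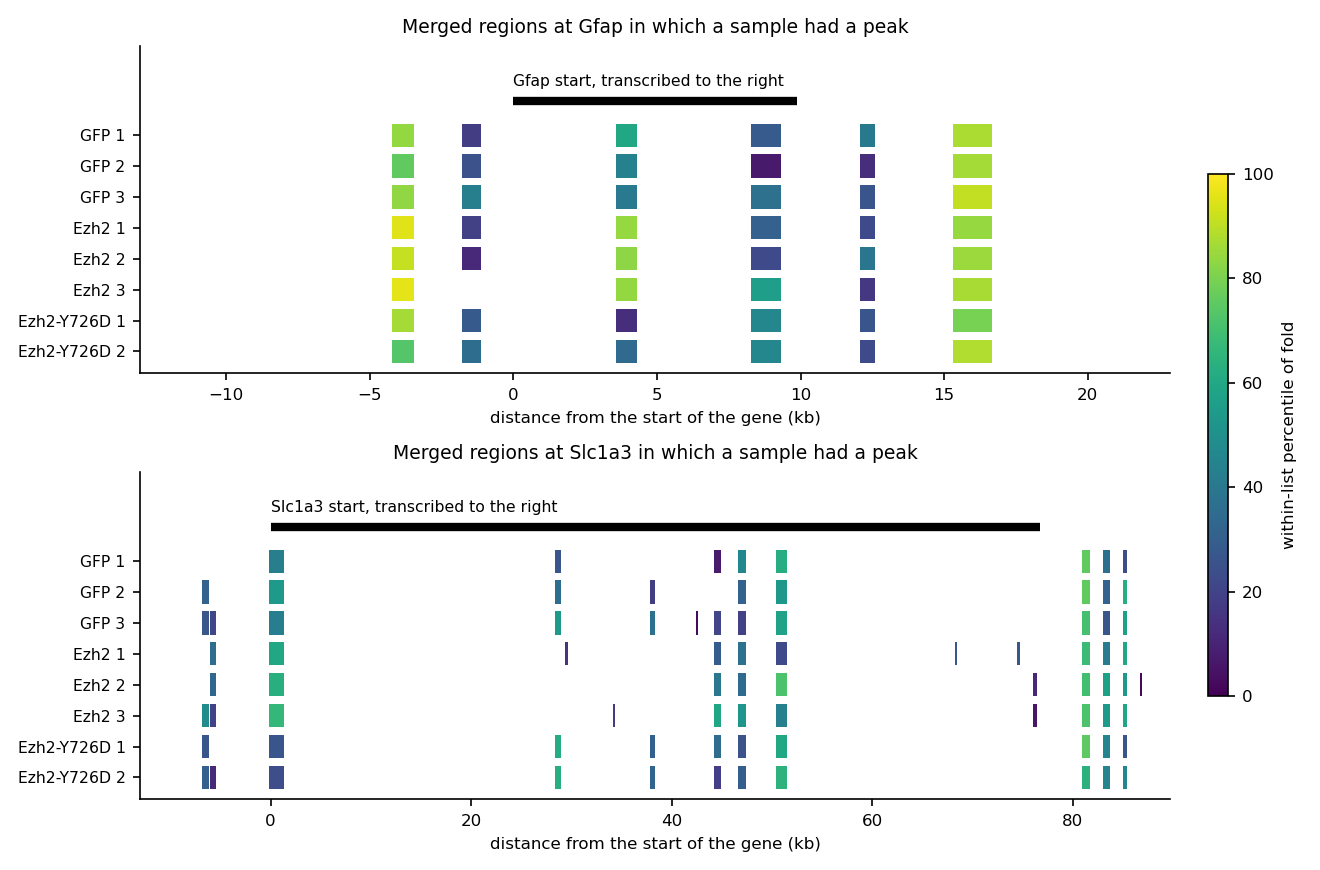
Merged regions at Gfap (top) and Slc1a3 (bottom) in which a sample had a peak, 1 row per sample, with distance from the start of the gene in kb on the horizontal axis and colour for the within-list percentile of fold. At Gfap the region inside the gene is bright in the 3 Ezh2 rows (83.0 to 84.1) and no block covers the start, and at Slc1a3 the block 28657 bp inside the gene is missing from the Ezh2 rows.

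Sox9 and Lhx2 encode transcription factors that Müller glia keep from retinal progenitors. Sox9 had 2 regions, both in all lists. At its gene end (chromosome 11, 112781369 to 112783157) the percentiles were 56.1, 57.9 and 60.2 in GFP, 55.2, 68.5 and 63.0 in Ezh2, with 55.8 and 52.9 in Ezh2-Y726D, which overlap except for the small gap between GFP and Ezh2-Y726D (Ezh2-Y726D minus GFP -0.15 ± 0.18, adjusted p = 0.660). Inside the gene (112784821 to 112785446) the peaks were among the weakest of each list, at 0.399 to 3.50 in GFP, 5.45 to 17.3 in Ezh2 and 2.22 and 3.42 in Ezh2-Y726D. That region did not pass the test (Ezh2 minus GFP 0.81 ± 0.22, adjusted p = 0.0724).

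Lhx2 had the most tested regions, 7 of 9, and none passed the test in any comparison. Its upstream start (chromosome 2, 38338998 to 38340021) was at 85.6, 83.1 and 80.4 in GFP, 84.3, 86.9 and 82.8 in Ezh2, with 84.6 and 81.7 in Ezh2-Y726D. All 8 samples were within a narrow band, and the differences were 0.06 ± 0.17, -0.04 ± 0.19 and 0.10 ± 0.19 for Ezh2 minus GFP, Ezh2-Y726D minus GFP and Ezh2 minus Ezh2-Y726D. The downstream start (38350457 to 38352004) ranged from 53.3 to 69.1. Near the end of the gene, a region (38368731 to 38369092) had a peak in all Ezh2 samples, at 15.1, 31.3 and 17.5, and in no GFP or Ezh2-Y726D sample. A broad region inside the gene (38366471 to 38367696) was highest in 1 Ezh2-Y726D sample, at 69.4 against 40.5 in the other and 12.9 to 41.5 elsewhere.

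Apoe and Dkk3 encode secreted proteins, a lipid carrier that microglia and astrocytes also make and a Dickkopf family member. The Apoe start (chromosome 7, 19698073 to 19699698) was at 36.9, 61.9 and 53.9 in GFP, 51.9, 49.1 and 53.5 in Ezh2, with 59.9 and 49.4 in Ezh2-Y726D. The groups overlapped and the differences were near 0, at -0.02 ± 0.21, 0.07 ± 0.24 and -0.09 ± 0.24 for the comparisons in the order above. The region at the other end of the annotated gene overlaps Tomm40, a gene of mitochondrial protein import, and ranged from 24.3 to 46.1. None of the 3 Apoe regions passed the test. Beside this stands the microglia list, with 8 to 12 genes with a gene-end peak in GFP and 3 in either Ezh2-Y726D sample, and its part in the Apoe values was not tested.

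Dkk3 held 12 regions, 5 of them tested. The region at 112115276 to 112115836, 183 bp from a gene end, was at 15.4, 6.01 and 11.4 in GFP, 30.8, 34.4 and 21.7 in Ezh2, with 6.57 and 10.8 in Ezh2-Y726D. Although the Ezh2 samples lay above all others, neither difference passed the test (0.61 ± 0.18, adjusted p = 0.0917 against GFP, and 0.67 ± 0.20, adjusted p = 0.0548 against Ezh2-Y726D). At the other end (112157515 to 112159609) the samples ranged from 30.3 to 55.0. An internal region (112143010 to 112144943) had means of 31.1 ± 5.15 (SD, n = 3) in GFP, 41.6 ± 5.67 (n = 3) in Ezh2 and 18.4 ± 6.23 (n = 2) in Ezh2-Y726D, with an adjusted p of 0.0545 for Ezh2 against Ezh2-Y726D.

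**Figure D3:**
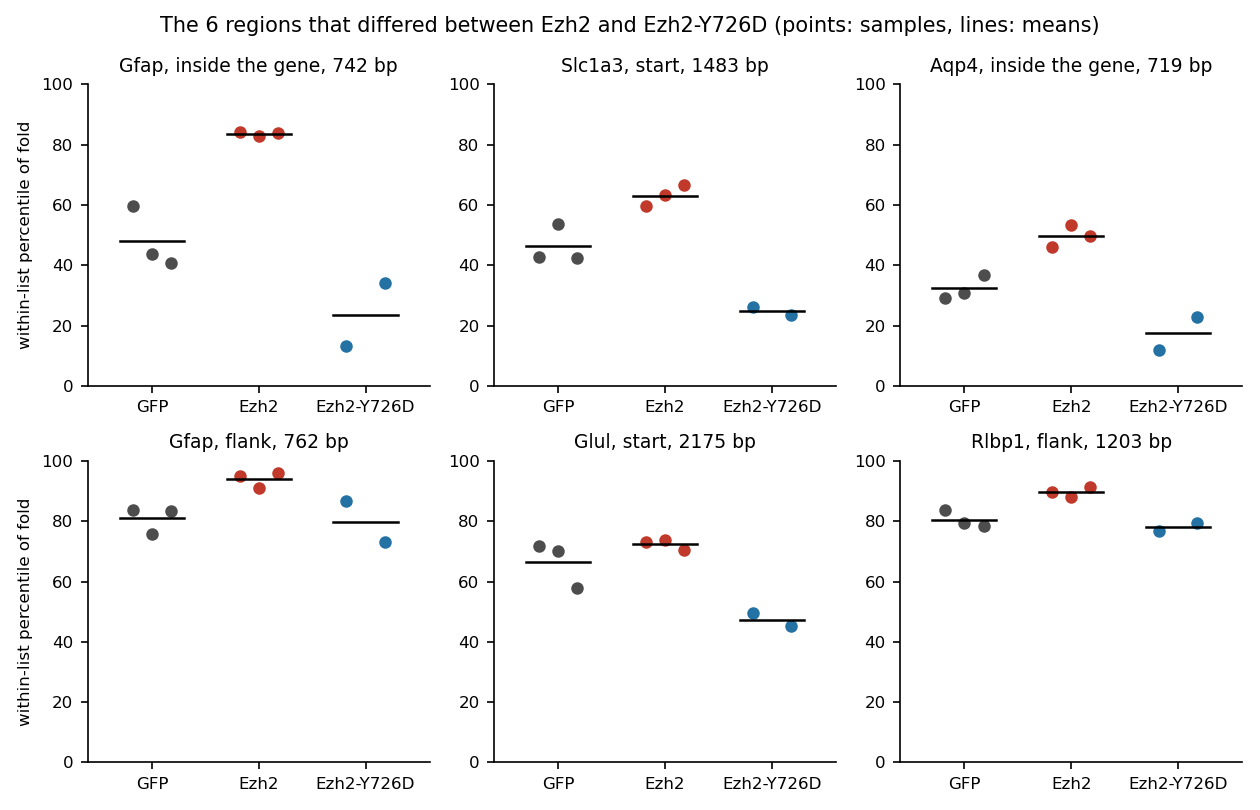
Within-list percentile of fold (vertical axis) by group at the 6 regions that passed the test between Ezh2 and Ezh2-Y726D. Points are samples and lines are means. In all panels the Ezh2 mean is highest, the Ezh2-Y726D mean is lowest, and the GFP mean lies between them. The panels were picked by this test, so the gap between Ezh2 and Ezh2-Y726D follows from the choice. GFP and Ezh2-Y726D means are close at the Gfap upstream region (81.0 and 79.8) and the Rlbp1 flank (80.5 and 78.1), and farther apart at the Glul start (66.6 and 47.3).

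Over the 38 tested regions, Ezh2 against Ezh2-Y726D gave 6 regions higher (15.8%) and 0 lower, where 7.0% of all regions were called higher and 6.96% lower. They lay at Gfap (2), Slc1a3, Aqp4, Glul and Rlbp1. The count of 6 was 2 without Ezh2-Y726D replicate 2, 3 without Ezh2-Y726D replicate 1 or Ezh2 replicate 1, and 3 when peaks were ranked by −log10 p. The Gfap region inside the gene kept its call in all 14 alternatives in which it was tested. At an unadjusted p under 0.05 limma had 12 member regions higher and 2 lower, where 14.9% and 14.5% of all regions were. The median difference of the 38 was 0.27, against 0.02 over all regions, and 28 of them were above 0, as were 52.0% of all regions. The median was 0.33 at rod, 0.26 at amacrine, 0.23 at astrocyte and 0.23 at RGC genes, 0.15 at endothelial and pericyte genes, 0.09 at 20 further Müller glia genes and 0.06 at bipolar genes. The microglia and T cell lists, whose medians were both -0.08, had fewer genes with a gene-end peak in Ezh2-Y726D. The depth index was 3.09 to 3.59 in the Ezh2 samples and 2.39 and 3.12 in the Ezh2-Y726D samples. The part of these lists or of depth in the result was not tested.

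Ezh2 against GFP gave 1 region higher, at Gfap, and 0 lower, where 1.59% of all regions were called higher and 2.84% lower. With limma at an unadjusted p under 0.05, 11 member regions were higher and 1 lower, where 9.93% and 10.1% of all regions were. The median difference was 0.19, against 0.01 over all regions, and 27 of 38 were above 0, as were 51.3% of all regions. Ezh2-Y726D against GFP gave 0 regions higher and 0 lower, where 3.55% and 4.65% of all regions were called. The smallest adjusted p of limma was 0.0924, at the Slc1a3 start, and 2 regions were higher and 4 lower at an unadjusted p under 0.05, where 12.01% and 12.4% of all regions were. Its median was -0.09, against -0.01 over all regions, and 13 of 38 were above 0, as were 48.5% of all regions. These comparisons share samples, so that the values of 1 group enter more than 1 of them.

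**Figure D4:**
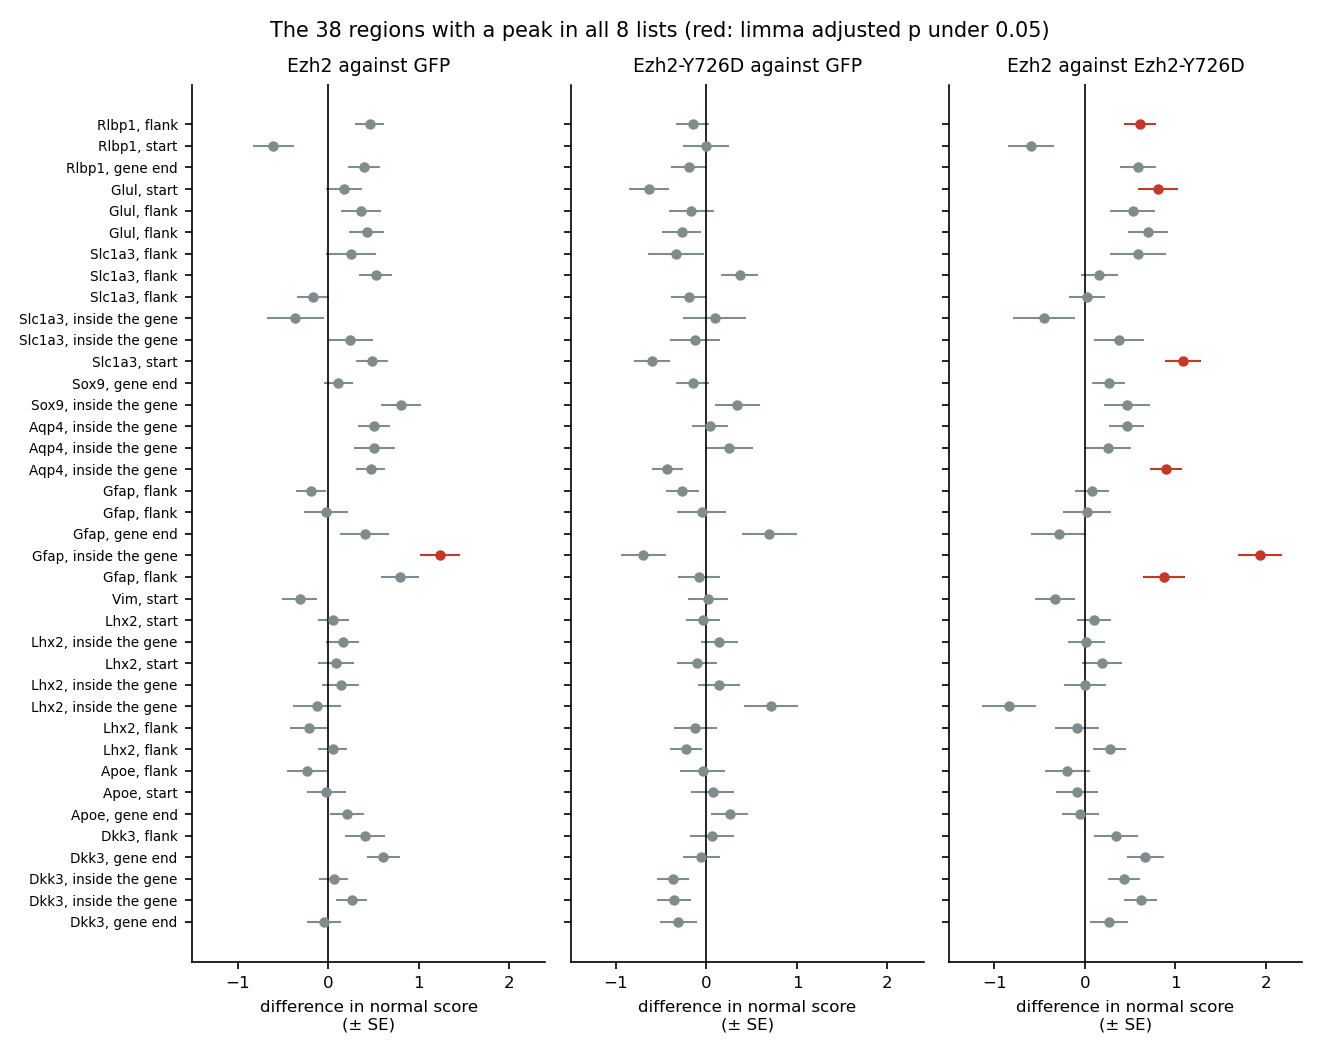
Difference in normal score (horizontal axis) with its SE for each of the 38 regions with a peak in all 8 lists, in the 3 comparisons. Red marks limma adjusted p under 0.05, which holds for 1 region in Ezh2 against GFP, 0 in Ezh2-Y726D against GFP and 6 in Ezh2 against Ezh2-Y726D.

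Among the 70 regions, few had peaks in all samples of one group and in none of another. Ezh2 against GFP had 1 gained (Lhx2) and 1 lost (Slc1a3), with 2.72% and 1.68% of all regions gained and lost. Ezh2-Y726D against GFP had 0 gained and 1 lost (Rlbp1), with 4.77% and 4.72%. Ezh2 against Ezh2-Y726D had 3 gained, at Lhx2, Rlbp1 and Dkk3 (112138197 to 112138959, at 2.06 to 9.08 in Ezh2), and 3 lost, of which 2 were at Slc1a3 and the third was at Rlbp1 (79388686 to 79389023). The backgrounds were 8.96% and 6.14%. These counts of members are small, and 1 library moved several of them, for example lost regions for Ezh2 against GFP from 1 to 4 without GFP replicate 1 or Ezh2 replicate 3. Regions with a peak in all 8 lists, 54.3% of members and 36.6% of all regions, could be neither gained nor lost.

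The number of peaks per gene differed little. Summed over the 10 genes it was 49, 55 and 61 in GFP, 57, 55 and 57 in Ezh2, with 54 and 59 in Ezh2-Y726D, and all groups overlapped. Groups did not overlap at Apoe, with 3 peaks in every GFP and Ezh2-Y726D sample and 4 in every Ezh2 sample, because the region over the Apoe start was called as 2 peaks in Ezh2 and as 1 elsewhere. They did not overlap either at Dkk3 between Ezh2 (10, 10 and 11) and GFP (6, 8 and 9), nor at Vim between GFP (2 in every sample) and Ezh2-Y726D (1 in either). So the 10 genes gave 2 higher and 0 lower for Ezh2 against GFP (background 6.93% and 2.12% of 21887 genes), 0 higher and 1 lower for Ezh2-Y726D against GFP (7.20% and 10.3%), and 1 higher and 0 lower for Ezh2 against Ezh2-Y726D (17.9% and 6.92%). Rlbp1 had 5, 7 and 8 peaks in GFP and 4, 4 and 5 in Ezh2, which overlap.

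**Figure D5:**
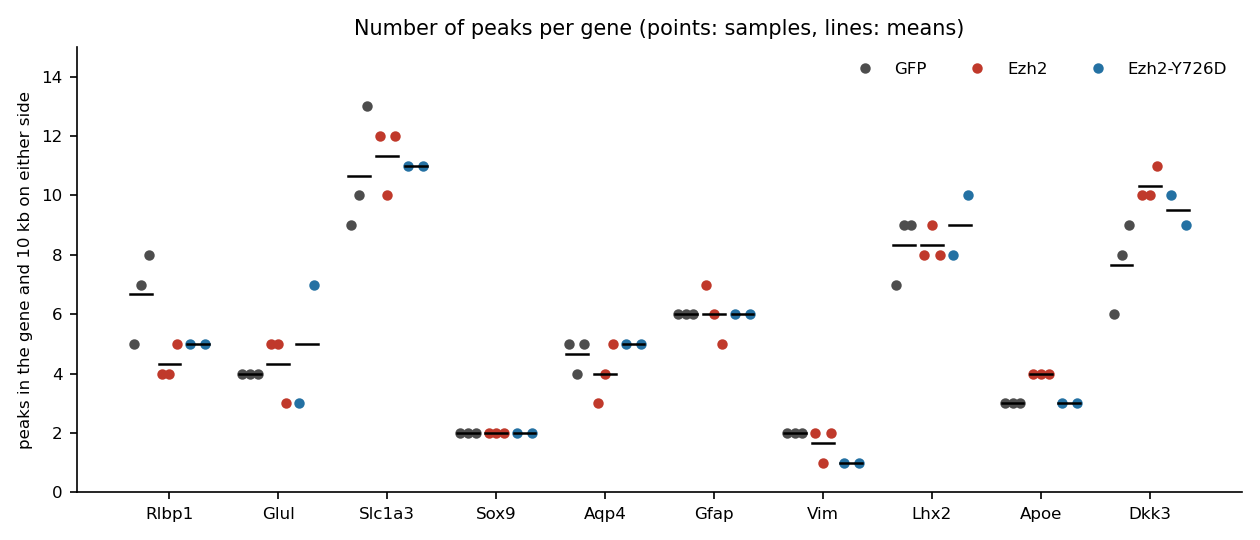
Number of peaks in each gene and the 10 kb on either side (vertical axis) by sample, with lines for group means. Sox9 had 2 peaks in every sample, Slc1a3 between 9 and 13, and Dkk3 more in Ezh2 (10 to 11) than in GFP (6 to 9).

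The strongest peak of a gene was not always the one at its start. At Glul, Vim and Lhx2 it was at the start in every sample, whereas at Rlbp1 and Slc1a3 it was elsewhere in every sample. At Gfap it was the region 3475 bp upstream in all Ezh2 samples and in Ezh2-Y726D replicate 1, and the region that overlaps Eftud2 and Ccdc103 in the others. At Aqp4 it also changed between samples. It lay at 15403165 to 15403909 in Ezh2-Y726D replicate 1 and at 15405069 to 15405510 in Ezh2-Y726D replicate 2. The called Aqp4 region, strongest in Ezh2 replicates 2 and 3, was lower in Ezh2-Y726D than in GFP. The percentile of the strongest peak, averaged over the 10 genes, was 67.5, 69.3 and 66.1 in GFP and 70.0, 72.2 and 70.0 in Ezh2. It was 67.3 and 62.5 in Ezh2-Y726D. Groups did not overlap for Ezh2 against GFP at Rlbp1, Aqp4 and Gfap (higher) and Vim (lower), with 11.3% and 10.7% of all genes. For Ezh2-Y726D against GFP they did not at Aqp4 (higher) and Glul, Sox9 and Dkk3 (lower), with 16.1% and 21.2%. For Ezh2 against Ezh2-Y726D this was so at Rlbp1, Glul, Aqp4, Gfap and Dkk3 (higher) and Vim (lower), with 25.4% and 18.6%. The order rests on ranking by fold. Ranked by the deposited −log10 p-value instead, the mean difference between Ezh2 and Ezh2-Y726D was -1.34 in place of 5.81 percentile points, and that between Ezh2 and GFP was -0.06 in place of 3.06.

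The 20 further Müller glia genes (among them Kcnj10, Sox2, Hes1, Nfia and Clu) had gene-end peaks at 17 or 18 members in every list. Of their 105 tested regions, limma called 0 higher and 7 lower for Ezh2 against GFP, 1 higher and 3 lower for Ezh2-Y726D against GFP, and 14 higher and 10 lower for Ezh2 against Ezh2-Y726D. Over all regions these shares were 1.59% and 2.84%, 3.55% and 4.65%, and 7.0% and 6.96%. At 10 astrocyte genes, of which 6 to 8 had a gene-end peak, 44 tested regions gave 0 and 0, 4 and 4, and 9 and 3 in the same order. At 13 rod genes, 46 tested regions gave 9 and 1, 3 and 4, and 6 and 0, the last of which are the counts of the 10 Müller glia genes. No difference between lists was tested. The member region farthest from its gene, 9986 bp from Slc1a3, was in 1 list at a percentile of 2.43, and the nearest one left out, 10401 bp from Dkk3, was in all 8 lists at 71.3 to 93.4.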

How the data were processed

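ATAC-seq peaks of 8 samples were analysed, with groups from the sample titles (3 GFP, 3 Ezh2, 2 Ezh2-Y726D). The submitters' processing notes name cutadapt, Bowtie2, SAMtools, Picard, MACS2 and deepTools, without versions, and the build GRCm38. The authors called peaks per sample and deposited 1 list each, with peak names tagged for filtering on mapping quality and for duplicate removal. The deposited fold is a ratio of summit pileup to local background, and their peak caller also gave the deposited −log10 p-value, and the −log10 q-value of the same caller was deposited beside it. The deposited score was not used. Folds depend on depth, so each was ranked within its own list, which removes overall shifts between libraries.

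Merging, ranks (pandas 2.3.3, scipy 1.17.1) and limma 3.58.1 in R 4.3.3 (lmFit and eBayes, 1 fit with 8 samples and 3 comparisons, adjusted p threshold 0.05) were run over all 69493 regions with a peak in every list. A file of peaks holds no counts, so no count model was fitted. The fit was tested on simulated data with a shift of 2 normal scores, above every member difference, so power at the differences reported is not known. Genes and starts came from RefSeq tables of GRCm38.p6, which gave no start for Sox9, Aqp4 and Dkk3, where gene ends were used, and exon positions were not used here. All 10 genes, regions called by limma, and regions with peaks in every sample of one group and none of another were named. Genes, lists and tests were chosen with earlier results of these data known. Alternatives covered ranking, overlap, list length, q, window, left-out samples and replicate blocks.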

Additional observations from a re-analysis of the deposited data

How the results depend on the processing

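Of the member regions called by limma, Gfap inside the gene kept its call between Ezh2 and Ezh2-Y726D in 14 of 14 alternatives (adjusted p 0.00073 to 0.0203) and against GFP in 11 of 14 (0.0109 to 0.0652). The others, all between Ezh2 and Ezh2-Y726D, kept theirs in 15 of 16 (Slc1a3 start, 0.0035 to 0.0539), 13 of 14 (Aqp4, 0.0062 to 0.0865), 9 of 16 (Glul start, 0.0184 to 0.178, and Gfap upstream, 0.0270 to 0.401) and 6 of 16 (Rlbp1 flank, 0.0332 to 0.867). Signs were the same in all of these. Single libraries decided several calls. Slc1a3 lost it without Ezh2-Y726D replicate 2 (0.0539), Aqp4 without Ezh2-Y726D replicate 1 (0.0865), Glul without any Ezh2 (0.0546 to 0.0894) or Ezh2-Y726D replicate (0.120 and 0.178), Gfap upstream without GFP replicate 3 (0.0515), Ezh2 replicate 1 (0.0863), Ezh2 replicate 3 (0.0857) or Ezh2-Y726D replicate 2 (0.250), and Rlbp1 without any 1 library except GFP replicate 3 (0.0519 to 0.205).

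With 1 library left out, regions higher in Ezh2 than in Ezh2-Y726D numbered 2 to 6 and lower 0 to 1, regions higher in Ezh2 than in GFP 0 to 1 (0 without GFP replicate 2 or 3), and regions lower in Ezh2-Y726D than in GFP 0 to 1 (1 without GFP replicate 3). Ranked by −log10 p, the counts between Ezh2 and Ezh2-Y726D were 3 higher and 1 lower, and that of regions lower in Ezh2-Y726D than in GFP was 1. The last count was also 1 on the percentile scale and on log2 of fold over the list's median, a scale added after the data were seen. The 1 region higher in Ezh2 than in GFP became 0 on the percentile scale. The count was also 0 with peaks covering at least 0.5 of the region (24 regions tested) and at −log10 q of at least 5 (31 tested). Fewer regions remained there, and this Gfap region was not among them. Peak names number the Ezh2-Y726D samples 2 and 3, where the titles give 1 and 2. Correlations of same-numbered deviations were -0.0151 to 0.0478 with the title numbers and 0.0018 to 0.0478 with those in the peak names. Pairs with unlike title numbers gave -0.0482 to 0.0461. In Ezh2-Y726D, with 2 samples, the deviations mirror each other, so these values cannot settle whether the numbers pair samples. A replicate block on the numbers in the titles gave 2 regions higher in Ezh2 than in GFP. A block on the numbers in the peak names gave 3 higher in Ezh2 than in Ezh2-Y726D, in place of 6.

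Gained and lost regions moved with the lists. With peaks required to cover at least 0.5 of a region, gained regions were 2 (Ezh2 against GFP) and 3 (Ezh2-Y726D against GFP), and lost regions 2 in the latter. With lists of equal length, Ezh2 against GFP had 0 gained and 3 lost, Ezh2-Y726D against GFP 2 gained, and Ezh2 against Ezh2-Y726D 1 gained and 6 lost. At −log10 q of at least 5 the gained were 0, 2 and 1 in this order, and 5 were lost between Ezh2 and Ezh2-Y726D. Without 1 library, Ezh2 against GFP had 1 to 4 gained (4 without GFP replicate 3) and 1 to 4 lost (4 without GFP replicate 1 or Ezh2 replicate 3), Ezh2-Y726D against GFP 0 to 2 gained, and Ezh2 against Ezh2-Y726D 3 to 8 lost (8 without Ezh2 replicate 3, 6 without Ezh2-Y726D replicate 1). Summed peak numbers changed from 1.33 to -4 (Ezh2 minus GFP) and from -0.17 to -6.33 (Ezh2 minus Ezh2-Y726D) with lists of equal length, the latter to -7 at −log10 q of at least 5. The mean percentile of the strongest peak became -0.0601, 1.27 and -1.34 (Ezh2 minus GFP, Ezh2-Y726D minus GFP, Ezh2 minus Ezh2-Y726D) by −log10 p, and 7.43 and 9.23 for the comparisons of Ezh2 with GFP and with Ezh2-Y726D when taken with 1 kb around the gene. The cause of these changes was not tested. The lists limit depth statements, since a missing peak says only that the authors' caller made no call.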
